A study of Mus musculus with 6 samples.

Results

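Tenascins, nephronectin, periostin, fibronectin and thrombospondins are secreted proteins of the extracellular matrix that act on cells mainly through integrins and other surface receptors. In this report 8 genes are described: Tnn (tenascin-W), Tnc (tenascin-C), Npnt (nephronectin), Itga8 (the integrin alpha chain through which nephronectin is bound), Postn (periostin), Fn1 (fibronectin), Thbs1 and Thbs2 (the trimeric thrombospondins). They were chosen by name from the 55471 genes of the deposited count table and matched to it by gene identifier, and all 8 passed the filter on low counts that left 13826 genes for testing. The names were picked with earlier results of these libraries known, so how many of the 8 differed is a description of this list only.

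RNA sequencing was carried out on primary osteoblasts, the bone-forming cells, which were isolated from the skull cap of 3-day-old C57BL/6 mice and cultured for 3 days. The 3 TCKO libraries were from mice with Prx1-Cre that were Tet1 fl/fl, Tet2 fl/fl and also Tet3 fl/fl, in which the recombinase is driven by the Prx1 regulatory sequence of limb and skull mesenchyme and removes floxed parts of all 3 genes for TET enzymes, the dioxygenases that oxidize 5-methylcytosine in DNA. The 3 WT libraries were labelled wild type, with no further statement of whether these mice carried Cre or floxed alleles. The sources used here do not say whether the libraries of a genotype came from separate mice or pools, so p-values measure the spread between these libraries, which may be partly technical.

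The libraries held 8019999 to 10177214 counts. Replicates 1 and 2 of each genotype were near copies of each other (chi-square per degree of freedom of their counts 1.69 in WT and 2.04 in TCKO), whereas their pairs with replicate 3 had values from 16.5 to 23.3. TCKO replicate 3 held 4583 counts of Xist and none of Ddx3y, the female pattern, and the other 5 libraries had the male one. Tet1 was lower in TCKO (log2 fold change -0.97 ± 0.16 SE, edgeR adjusted p = 0.00648), while Tet3 was higher (0.51 ± 0.09, adjusted p = 0.00745) and Tet2 did not pass (-0.14 ± 0.14, adjusted p = 0.545). Neither Tet1 nor Tet3 passed after replicates 1 and 2 were added up (adjusted p = 0.0797 and 0.0878). The counts cover whole genes and do not resolve the floxed exons, so the directions below rest on the library labels. Of the osteoblast markers, Col1a1 was abundant, while Bglap and Dmp1, genes of mature osteoblasts and osteocytes, had at most 3 counts in any library.

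As background, tenascin-W is a hexameric glycoprotein found in the periosteum, perichondrium and other osteogenic stroma, and tenascin-C is its widely expressed relative, induced where tissue is remodelled or strained. Nephronectin is laid down by osteoblast precursors and by basement membranes and carries an integrin-binding RGD sequence. Periostin is the matrix protein of periosteum and periodontal ligament, fibronectin is the scaffold on which other matrix proteins are assembled, and the trimeric thrombospondins bind CD36, CD47 and latent growth factors.

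Tnn was 15.2-fold lower and Npnt 4.88-fold lower in TCKO than in WT, Tnc was 2.25-fold higher, and Itga8, Postn, Fn1, Thbs1 and Thbs2 did not pass the test. A gene passed when its adjusted p from edgeR's quasi-likelihood test was under 0.05. By that rule 2 of the 8 genes were lower, against 8.63% of all tested genes, and 1 of the 8 was higher, against 9.07%. The same 3 genes differed over 2-fold, where 3.19% of the tested genes were lower and 3.16% higher. The median log2 fold change of the 8 genes was -0.30, beside 0.00 for all tested genes.

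The sequences just before the start sites of the 3 genes that differed are shown because TET enzymes act on CG dinucleotides, which are written in capitals. They are the 250 bases upstream of the RefSeq start site on GRCm38.p6, 5′ to 3′ on the strand of the gene, Tnn at chr1:160153576-160153825, Npnt at chr3:132950292-132950541 and Tnc at chr4:64047016-64047265, all on the minus strand.
Tnn: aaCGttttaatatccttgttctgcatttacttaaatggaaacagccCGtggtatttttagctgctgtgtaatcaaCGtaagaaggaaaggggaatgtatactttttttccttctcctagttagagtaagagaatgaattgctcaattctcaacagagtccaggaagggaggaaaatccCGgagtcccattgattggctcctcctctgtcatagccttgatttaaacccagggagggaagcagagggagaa
Npnt: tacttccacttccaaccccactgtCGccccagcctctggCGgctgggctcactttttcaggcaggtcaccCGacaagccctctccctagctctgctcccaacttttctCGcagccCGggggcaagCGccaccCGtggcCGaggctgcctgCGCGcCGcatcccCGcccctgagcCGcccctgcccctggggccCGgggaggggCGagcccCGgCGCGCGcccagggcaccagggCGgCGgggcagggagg
Tnc: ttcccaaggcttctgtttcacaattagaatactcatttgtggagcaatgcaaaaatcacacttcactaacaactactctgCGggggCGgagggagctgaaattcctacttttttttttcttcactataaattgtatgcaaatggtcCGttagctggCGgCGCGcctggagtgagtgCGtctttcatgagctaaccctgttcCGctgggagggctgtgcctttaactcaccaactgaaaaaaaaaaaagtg
The window of Tnn held 4 CG dinucleotides, that of Npnt 21 and that of Tnc 8, and the median over 32851 promoter windows was 6. Of all windows, 44.4% held as few as that of Tnn or fewer, 59.7% as few as that of Tnc and 85.2% as few as that of Npnt. The 2 genes that were lower in TCKO thus had windows on either side of the median. The RUNX core TGTGGT and the AP-1 site TGANTCA, searched on both strands, were in none of the 9 windows listed for Tnn, Tnc, Npnt, Itga8, Postn and Thbs2, and were in 14.0% and 6.75% of all windows. That says only that these letters were not in these windows, and other forms of the RUNX core were not searched.

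To order the genes by level, counts were scaled to library size and gene length as RPKM (reads per kilobase of summed exon length and 1000000 counts). Thbs1 stood far above the others, at 3713 ± 881 RPKM in WT and 2775 ± 273 RPKM in TCKO (SD, n = 3), and held the most counts of any gene in 5 of the 6 libraries. In WT it was followed by Fn1, Thbs2, Tnc, Tnn, Npnt, Postn and Itga8, whose mean levels ran from 726 down to 1.95 RPKM. Only Tnc and Tnn overlapped in level among neighbours of that order. In TCKO the order became Thbs1, Fn1, Tnc, Thbs2, Postn, Npnt, Tnn and Itga8, with overlap only between Postn and Npnt. Tnn thereby moved from the fifth to the seventh place and Tnc from the fourth to the third. All 8 genes together took 2.95% to 3.70% of the counts of a WT library and 2.52% to 2.94% of a TCKO library, most of it Thbs1.

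**Figure D1:**
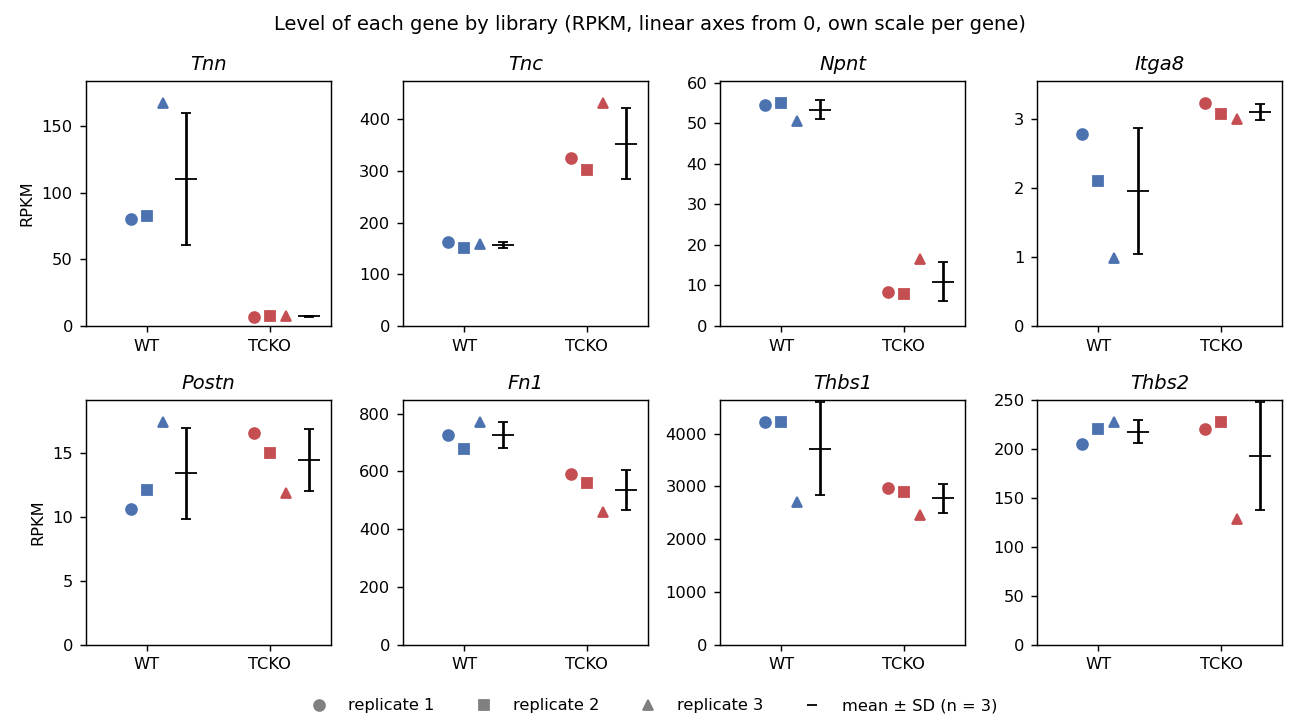
Level of the 8 genes in each library in RPKM, each gene on its own linear axis from 0, with WT in blue, TCKO in red, a marker shape per replicate number and the mean ± SD (n = 3) beside the points. Tnn lay between 80.6 and 167 RPKM in WT and between 6.95 and 7.62 in TCKO, and Tnc between 150.4 and 162 in WT and between 302 and 431 in TCKO.

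The tenascins were examined first. Tnn (ENSMUSG00000026725, chromosome 1, 160085029 to 160153580, minus strand, GRCm38) had 80.6, 82.6 and 167 RPKM in WT replicates 1, 2 and 3 and 6.95, 7.14 and 7.62 RPKM in TCKO. The genotypes did not overlap, and the spread lay in WT, where replicate 3 stood above the others. The fold change was -3.93 ± 0.30 on the log2 scale (SE; 95% interval -4.62 to -3.23, edgeR adjusted p = 0.000228). It was the 15th lowest fold change of the 13826 tested genes. The log2 difference in CPM was -3.54, -3.53 and -4.45 within replicates 1, 2 and 3. Because 334 to 395 counts remained in each TCKO library, the low level was measured and not a floor.

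Tnc (ENSMUSG00000028364, chromosome 4, 63959785 to 64047015, minus strand) went the other way. It had 162, 150.4 and 158 RPKM in WT and 326, 302 and 431 RPKM in TCKO. The lowest TCKO library stood well above the highest WT library, and the WT values were close together, at 157 ± 5.87 RPKM (SD, n = 3). The log2 fold change was 1.17 ± 0.14 (95% interval 0.84 to 1.5, edgeR adjusted p = 0.00163), and the difference within replicates 1, 2 and 3 was 1.01, 1.01 and 1.45. A transcript on the opposite strand, 8030451A03Rik, overlaps exons of Tnc, but with 9 to 46 counts a library it was small beside the 10147 to 29862 counts of Tnc.

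The ratio of the tenascins was also taken within each library, where library size cancels. Tnn stood at 0.498, 0.549 and 1.05 times the RPKM of Tnc in WT and at 0.0213, 0.0236 and 0.0177 times in TCKO. The mean log2 ratio was -0.60 ± 0.59 in WT and -5.59 ± 0.21 in TCKO (SD, n = 3), a difference of -4.99. With 3 libraries against 3 the exact two-sided permutation test cannot go below 0.10, and its p was 0.10 (0.133 after adjustment over the 4 ratios computed).

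Nephronectin and its receptor chain were then compared. Npnt (ENSMUSG00000040998, chromosome 3, 132881745 to 132950291, minus strand) had 54.4, 54.9 and 50.6 RPKM in WT and 8.47, 7.86 and 16.4 RPKM in TCKO. WT was tight, and TCKO replicate 3 lay above the other TCKO libraries while remaining far under WT. The log2 fold change was -2.29 ± 0.26 (95% interval -2.89 to -1.69, edgeR adjusted p = 0.00129). Within replicates 1, 2 and 3 the log2 difference was -2.68, -2.80 and -1.63.

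Itga8 (ENSMUSG00000026768, chromosome 2, 12106632 to 12301922, minus strand) was the lowest of the 8 genes, with 60 to 208 counts a library. It had 2.78, 2.09 and 0.987 RPKM in WT and 3.22, 3.07 and 3.00 RPKM in TCKO. Although all TCKO libraries lay above all WT libraries, they lay only a little above WT replicate 1, and the log2 fold change of 0.67 ± 0.30 did not pass (95% interval -0.04 to 1.37, edgeR adjusted p = 0.176). Its difference within replicates 1, 2 and 3 was 0.21, 0.56 and 1.6 on the log2 scale, most of it from the low WT replicate 3. Without WT replicate 3 the log2 fold change was 0.36 (adjusted p = 0.123). Per length, Npnt exceeded Itga8 by 19.6, 26.3 and 51.2 times in WT and by 2.63, 2.56 and 5.45 times in TCKO. That log2 ratio differed by -3.16 between the genotypes, without overlap (exact permutation test, two-sided, p = 0.10, the smallest possible, adjusted p = 0.133).

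Periostin and fibronectin did not pass the test. Postn (ENSMUSG00000027750, chromosome 3, 54361109 to 54391037, plus strand) had 10.6, 12.1 and 17.4 RPKM in WT and 16.5, 15.0 and 11.8 RPKM in TCKO. The genotypes overlapped, and the sign of the difference depended on the replicate, with log2 values of 0.64, 0.31 and -0.55 within replicates 1, 2 and 3. Over all libraries the log2 fold change was 0.11 ± 0.19 (95% interval -0.34 to 0.56, edgeR adjusted p = 0.732), and it was -0.03 without WT replicate 1. The interval bounds a difference in either direction at under 2-fold. Its level was 13.3 ± 3.57 RPKM in WT and 14.4 ± 2.37 RPKM in TCKO (SD, n = 3).

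Fn1 (ENSMUSG00000026193, chromosome 1, 71585520 to 71653200, minus strand) had 727, 679 and 772 RPKM in WT and 592, 559 and 458 RPKM in TCKO. Every TCKO library lay under every WT library, and TCKO replicate 3 was the lowest. The log2 fold change of -0.44 ± 0.13 narrowly missed the threshold (95% interval -0.74 to -0.14, edgeR adjusted p = 0.0537). It passed with the replicate number as a block (adjusted p = 0.0428), without TCKO replicate 3 (-0.33, adjusted p = 0.0300) and with DESeq2 (adjusted p = 0.00452), and it did not with replicates 1 and 2 summed (adjusted p = 0.305). The ratio of Postn to Fn1 per length was 0.0146, 0.0178 and 0.0225 in WT and 0.0278, 0.0269 and 0.0258 in TCKO. Between the genotypes it differed by 0.58 on the log2 scale (exact permutation test, two-sided, p = 0.10, adjusted p = 0.133 over the 4 ratios).

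The thrombospondins were last. Thbs1 (ENSMUSG00000040152, chromosome 2, 118111876 to 118127133, plus strand) had 4225, 4218 and 2696 RPKM in WT and 2976, 2886 and 2464 RPKM in TCKO. WT replicate 3 fell among the TCKO libraries, so the genotypes overlapped. The log2 fold change was -0.42 ± 0.20 (95% interval -0.87 to 0.03, edgeR adjusted p = 0.182), and it became -0.60 with an adjusted p of 0.0145 without WT replicate 3. Within replicates 1, 2 and 3 the log2 difference was -0.51, -0.55 and -0.13. Because Thbs1 held between 1.52% and 2.52% of all counts, the spread between libraries was far larger than counting error.

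Thbs2 (ENSMUSG00000023885, chromosome 17, 14665500 to 14694235, minus strand) had 205, 221 and 228 RPKM in WT and 221, 228 and 129 RPKM in TCKO. A single library, TCKO replicate 3, was low, and the other 5 lay within a narrow band. The log2 fold change was -0.18 ± 0.20 (95% interval -0.65 to 0.29, edgeR adjusted p = 0.590), and 0.05 without TCKO replicate 3 (adjusted p = 0.693). The ratio of Thbs2 to Thbs1 per length ran from 0.0486 to 0.0845 among WT libraries and between 0.0522 and 0.0792 among TCKO libraries. These ranges overlapped, with a log2 difference of 0.17 (exact permutation test, two-sided, p = 0.80, adjusted p = 0.80 over the 4 ratios).

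**Figure D2:**
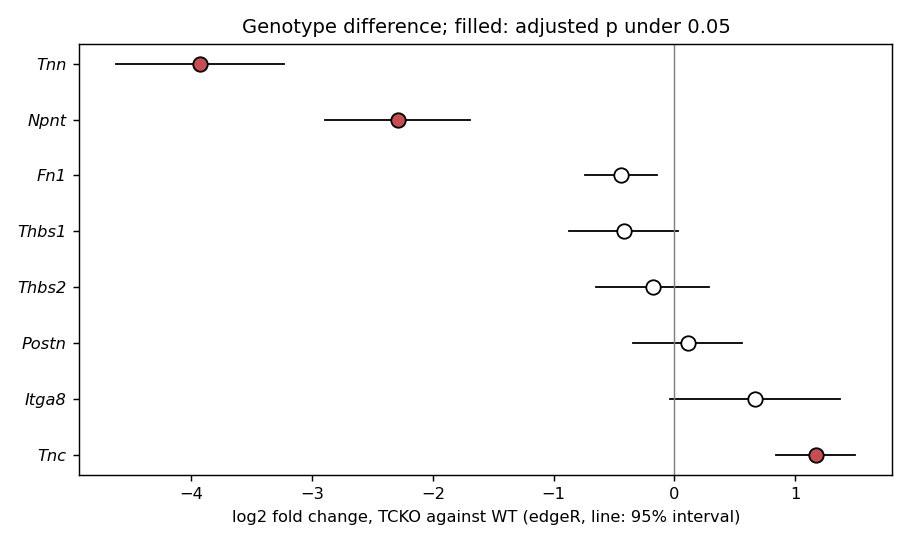
Log2 fold change of each gene in TCKO against WT (horizontal axis) with its 95% interval from the edgeR fit over 3 libraries a genotype, filled where the adjusted p was under 0.05. Tnn (-3.93) and Npnt (-2.29) lie left of 0 and Tnc (1.17) right of it, and the open points lie between -0.44 and 0.67.

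**Figure D3:**
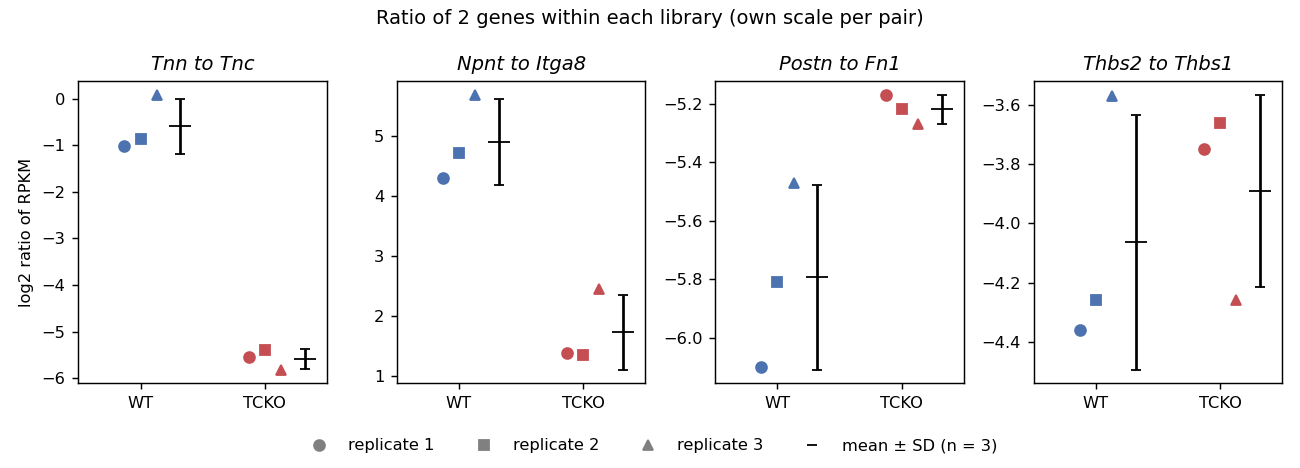
Log2 ratio of the RPKM of 2 genes within each library, one panel a pair with its own axis, points by replicate number and mean ± SD (n = 3) beside them. The ratio of Tnn to Tnc averaged -0.60 in WT and -5.59 in TCKO, and only the ratio of Thbs2 to Thbs1 overlapped between the genotypes.

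In all, 5 of the 8 genes (Tnn, Tnc, Npnt, Itga8 and Fn1) had ranges that did not overlap between the genotypes, against 38.3% of all tested genes. Since replicate 3 stood apart in both genotypes, the difference within each replicate number was set side by side. Tnn, Npnt, Fn1 and Thbs1 were lower in TCKO and Tnc and Itga8 higher in all 3 comparisons, whereas Postn and Thbs2 changed sign in replicate 3. Replicates 1 and 2 were near copies, so the 3 comparisons are not independent. In replicate 3 a male WT library was set against the female TCKO library, so genotype and sex cannot be told apart there. Tnn, Tnc and Npnt kept an adjusted p under 0.05 in all 15 alternative fits, the highest being 0.0140, 0.0471 and 0.0423 with replicates 1 and 2 summed. In replicates 1 and 2 alone 7 of the 8 genes passed, all but Thbs2, beside 45.1% of all tested genes, in libraries whose near identity understates the spread.

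**Figure D4:**
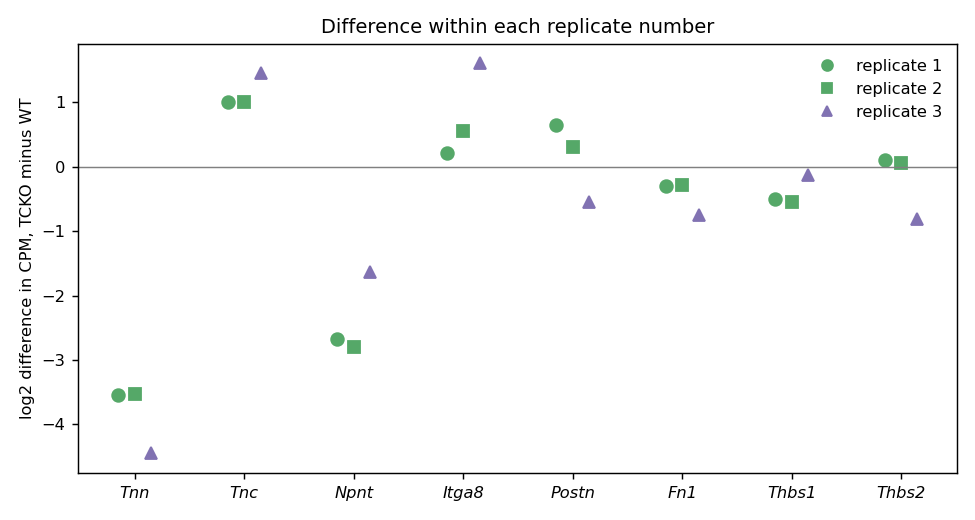
Log2 difference in CPM between TCKO and WT within replicate 1 (circle), replicate 2 (square) and replicate 3 (triangle) for the 8 genes. For each gene replicates 1 and 2 lie closer to each other than to replicate 3, as for Itga8 (1.6 against 0.21 and 0.56) and Postn (-0.55 against 0.64 and 0.31).

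Genes related to these 8 by family or by binding were counted next, in 4 lists holding 54 genes, of which 51 were tested. Altogether 11 were lower and 13 higher in TCKO, beside 8.63% and 9.07% of all tested genes, and the lists were drawn up with results known. The count of 24 was sensitive to the libraries, as was that of all tested genes, of which 2447 passed. Without WT replicate 1 the related genes gave 12 calls and all tested genes 1236, and without WT replicate 2 they gave 12 and 1153. Without TCKO replicate 1 the counts were 15 and 1292, and without TCKO replicate 2 they were 14 and 1342. After replicates 1 and 2 were added up 2 related genes (Thbs3 and Smoc1) passed, where 2.79% of all tested genes passed. A replicate block gave 33, with 23.5% of all tested genes passing, and 18 when it was applied to the summed replicates, with 8.32% passing.

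Of the nearest relatives, 6 of 7 were tested, 1 was lower and 1 higher (median log2 fold change -0.64), beside 8.63% and 9.07% of all tested genes. Comp, the pentameric thrombospondin of cartilage, had 38.0, 36.7 and 102 CPM (counts scaled to 1000000 per library) in WT and 9.82, 9.20 and 5.16 CPM in TCKO. Its fold change was -2.86 ± 0.46 on the log2 scale (edgeR adjusted p = 0.00543, and 0.0541 when replicates 1 and 2 were added up). Thbs3, another pentameric thrombospondin, had 22.8, 18.3 and 20.1 CPM in WT and 42.0, 44.6 and 36.8 CPM in TCKO, so that it differed by 1.01 ± 0.12 on the log2 scale (edgeR adjusted p = 0.00141). Exons of Thbs3 overlap those of Mtx1 on the opposite strand, which had 268 to 354 counts, so its counts are less certain. Thbs4 (-1.43 ± 0.56, adjusted p = 0.122), the tenascin Tnxb (-1.20 ± 0.50, adjusted p = 0.141), Tgfbi, the paralog of Postn (0.56 ± 0.34, adjusted p = 0.309), and Egfl6, the paralog of Npnt (-0.08 ± 0.41, adjusted p = 0.920), did not pass in the edgeR fit. The tenascin Tnr was not tested, since WT held 0, 1 and 0 of its counts and TCKO 8, 8 and 1.

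Among receptors, 14 of 15 were tested, 3 were lower, 4 higher and 7 did not pass (median log2 fold change -0.07). Of all tested genes 8.63% were lower and 9.07% higher. Itgb1, the beta chain that pairs with Itga8, had 1919, 1969 and 2175 CPM in WT and 2815, 2789 and 3182 CPM in TCKO, which gave 0.54 ± 0.10 as log2 fold change (edgeR adjusted p = 0.0100). Itga5, the alpha chain of the main fibronectin receptor, had 261, 251 and 355 CPM in WT and 532, 551 and 573 CPM in TCKO (0.93 ± 0.13, adjusted p = 0.00341). It was named after its values were seen. Itga4, a chain that binds fibronectin and thrombospondin, was higher (1.68 ± 0.40, adjusted p = 0.0266), as was Ptprz1, a tyrosine phosphatase receptor that binds tenascins (1.26 ± 0.33, adjusted p = 0.0376). The tenascin-binding chain Itga9 was lower (-0.59 ± 0.13, adjusted p = 0.0220), and so was the thrombospondin receptor Cd36 (-1.16 ± 0.26, adjusted p = 0.0197). Itgav (-0.06 ± 0.09, adjusted p = 0.690), Itgb3 (0.59 ± 0.28, adjusted p = 0.186) and Cd47 (-0.28 ± 0.10, adjusted p = 0.105) did not pass, although Itgb3 and Cd47 did with a replicate block (adjusted p = 0.0123 and 0.0400). With replicates 1 and 2 summed and no block, the adjusted p was 0.520 for Itgb3 and 0.327 for Cd47. Among the receptors named here, Itgb1, Itga5, Itga4, Ptprz1, Itga9 and Cd36 did not pass with replicates 1 and 2 summed (edgeR adjusted p from 0.0862 to 0.221). Leaving out WT replicate 1 ended the calls of Itgb1 (adjusted p = 0.0587), Itga4 (0.0984), Ptprz1 (0.128), Itga9 (0.0864) and Cd36 (0.0808), and leaving out WT replicate 2 did likewise (0.0603, 0.0600, 0.0634, 0.0726 and 0.0820). WT replicate 3 was needed by Itga4 (0.0602 without it) and Ptprz1 (0.0768), TCKO replicate 1 by Itga4 (0.0821), Ptprz1 (0.112) and Itga9 (0.0638), and TCKO replicate 2 by Itga4 (0.0731), Ptprz1 (0.126), Itga9 (0.0873) and Cd36 (0.0732).

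Of 12 genes for processing enzymes and binding partners, 2 were lower, 3 higher and 7 did not pass (median log2 fold change -0.14). Of all tested genes 8.63% were lower and 9.07% higher. With a replicate block 10 of the 12 passed, beside 23.5% of all tested genes. With the block on the summed replicates 4 passed, beside 8.32%. In edgeR with the sums alone 0 passed, beside 2.79%, and 4 had an unadjusted p under 0.05. Elastin, Eln, was the only one to pass with a fold over 2, at 53.6, 58.0 and 32.7 CPM in WT against 14.0, 15.0 and 17.9 CPM in TCKO (log2 fold change -1.62 ± 0.22, edgeR adjusted p = 0.00259, and 0.0694 with replicates 1 and 2 summed). Of 20 further matricellular genes, 19 were tested, 5 were lower, 5 higher and 9 did not pass (median -0.02). Those past 2-fold were Smoc1 (-2.49), Ccn5 (-1.70) and Sparcl1 (-1.34) in the lower direction and Spock1 (3.79), Fbln1 (1.84), Fgl2 (1.52) and Fbln2 (1.30) in the higher, with edgeR adjusted p from 0.00186 to 0.0451. Sparcl1, with 3 to 17 counts a library, did not pass with a replicate block (adjusted p = 0.0513) or when any library was left out (0.0555 to 0.131). Without WT replicate 1 the calls of Ccn5 (0.0549), Fbln1 (0.0859) and Fgl2 (0.0984) were also lost, as they were without WT replicate 2 (0.0626, 0.110 and 0.126). Fbln1 was lost without WT replicate 3 (0.0745), and Fbln1 and Fgl2 without TCKO replicate 1 (0.106 and 0.116) or TCKO replicate 2 (0.106 and 0.0689).

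**Figure D5:**
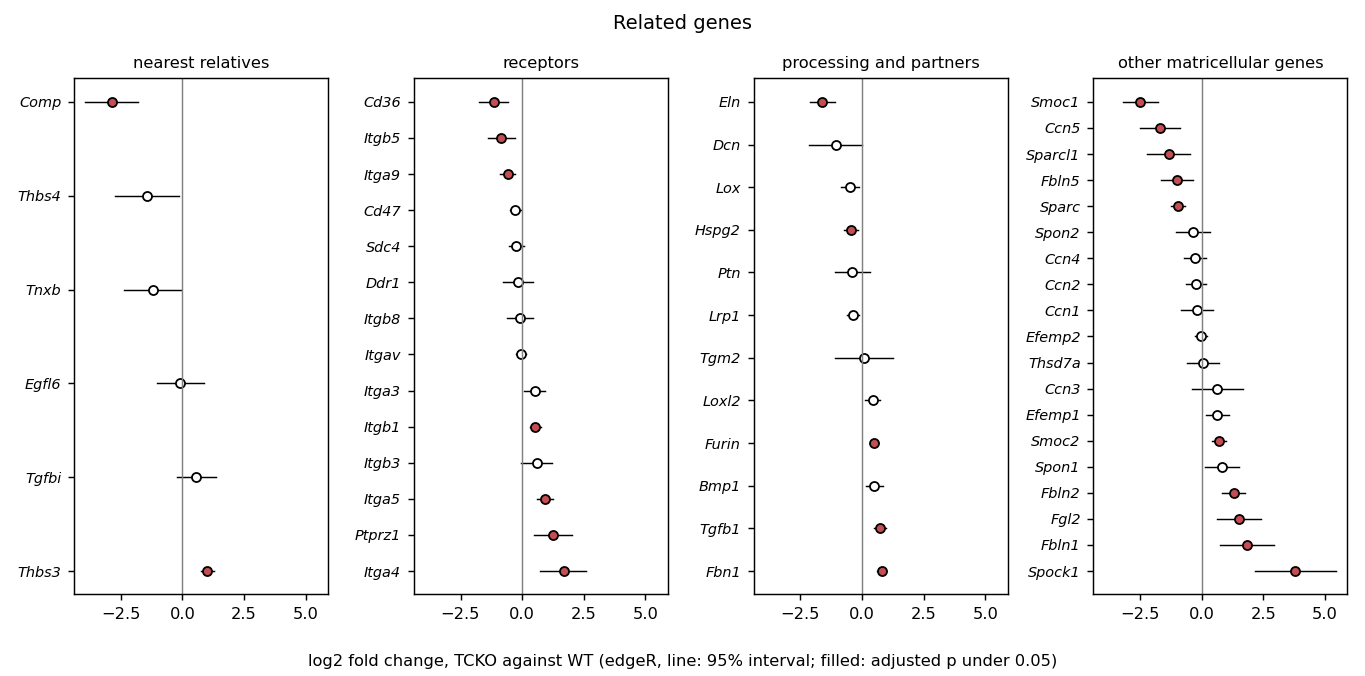
Log2 fold change in TCKO against WT with its 95% interval for the tested genes of the 4 lists, filled where the edgeR adjusted p was under 0.05. In each list filled points lie on both sides of 0, from Comp at -2.86 to Spock1 at 3.79.

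The markers of other cell types moved with genotype too, where 8.63% of all tested genes were lower and 9.07% higher. In bulk RNA, fewer cells of a type and less RNA per cell cannot be told apart. All 5 chondrocyte markers were lower in TCKO, and their sum was 6073 to 7996 CPM in WT and 690.3 to 959.8 CPM in TCKO, the same direction as Tnn, Npnt and Comp. Of 5 haematopoietic markers 2 were lower (sum 68.3 to 89.6 against 28.6 to 49.6 CPM). Of 5 smooth muscle and pericyte markers 2, Tagln and Cnn1, were higher, as was Tnc. The sum of these 5 (1857 to 2128 against 2372 to 2852 CPM) was mostly Acta2. Acta2 did not pass (log2 fold change 0.26, edgeR adjusted p = 0.179), and its genotypes overlapped. Myh11 (0.45) did not pass, nor did Rgs5, which went the other way (-0.44). Of the 8 osteoblast markers 6 were tested and 3 were lower, Runx2 (log2 fold change -0.45), Col1a1 (-0.61) and Alpl (-3.54). Col1a2 (-0.85, edgeR adjusted p = 0.0676), Sp7 (-1.59) and Ibsp (-0.38) did not pass. The sum of the 8 (30034 to 31978 against 14506 to 22479 CPM) was mostly Col1a1 and Col1a2. With a replicate block 5 osteoblast and 4 haematopoietic markers passed, beside 23.5% of all tested genes. In edgeR with replicates 1 and 2 summed 0 of either passed, beside 2.79%, and 3 and 2 had an unadjusted p under 0.05. Without TCKO replicate 3, the female library, all 6 tested osteoblast markers passed, beside 2882 of all 13826 tested genes. Of the haematopoietic markers that were lower, Csf1r did not pass without WT replicate 1 (adjusted p = 0.0955), WT replicate 2 (0.0935), TCKO replicate 1 (0.0529) or TCKO replicate 2 (0.0698), which left 1. Of the chondrocyte markers 2 passed with the sums. Of 4 Schwann cell markers 2 were tested and 1, S100b, which chondrocytes also express, was lower (sum 17.7 to 24.4 against 3.42 to 3.62 CPM). The 4 endothelial and the 4 epithelial markers summed to at most 2.24 and 0.595 CPM in any library. The part of these cells in the differences of Tnn, Npnt and Tnc was not tested.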

How the data were processed

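Poly(A) RNA of WT and TCKO primary osteoblasts was sequenced, with 3 libraries per genotype. The authors aligned reads to GRCm38 (Ensembl release 99 annotation) with STAR 2.7.0e, and the submitters' processing notes name featureCounts 2.0.0. The deposited values are raw counts per gene. Use of strand and treatment of shared reads are not given in the sources used here. Unassigned sample columns numbered 0.

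Counts were filtered with filterByExpr, scaled with TMM factors and tested with the quasi-likelihood test of edgeR 4.0.16 (R 4.3.3) over 6 libraries without covariates, with Benjamini-Hochberg adjustment over 13826 genes. SEs and 95% intervals of log2 fold changes came from the F statistic. CPM and RPKM used TMM-scaled libraries and the deposited summed exon length. At this depth 3 counts, the floor of detection, were 0.299 to 0.373 CPM, covering counting error only. The test was checked on simulated counts of 6 independent libraries. These had no near copies among replicates, so the check does not cover that feature of the real libraries. Ratios were compared by exact permutation, which counted near-copy replicates as separate libraries and was not repeated with them summed.

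Replicate numbers of the titles were treated as pairs only in the blocked fits and in the differences within replicate numbers. The main fit and the permutation tests were unpaired. The pairs were used because log2 CPM values (prior count 2), each less its group mean, correlated across genes. The correlations were 0.204, 0.214 and 0.347 for replicates 1, 2 and 3. Numbers 1 and 2 were not told apart by this (0.188 and 0.225 when crossed). As these were near copies, centring leaves mainly the contrast of replicate 3 with the others. The correlations therefore cannot show pairing by replicate number. Alternatives included RLE and upper-quartile factors, no filter, DESeq2 1.42.0 with and without the study's RPKM minimum of 0.24 (reached in any library), a replicate block, each library left out, replicates 1 and 2 alone, and replicates 1 and 2 summed.

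Named were the 8 genes, the TET genes, the nearest relatives of the 8, 7 receptor genes, other listed genes past 2-fold (Itga5 was added once its values were seen), and the 2 genes most like each of the 8 (1 of these is not reported here). Members, lists and alternatives were chosen with earlier results of these data known. Symbols were matched by identifier, and promoter windows came from RefSeq (GRCm38.p6), with 6 of 8 genes found.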

Additional observations from a re-analysis of the deposited data

How the results depend on the processing

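Tnn, Tnc and Npnt kept their direction and an adjusted p under 0.05 in all 15 alternative fits, with log2 fold changes from -4.11 to -3.49, from 1.01 to 1.27 and from -2.74 to -2.10. Of 120 fits of single genes, 104 left direction and call as they were, 11 brought an adjusted p under 0.05 and 5 turned the direction of a gene that had not passed. Fn1 passed with no filter (-0.43), DESeq2 (-0.44), the study's recipe (-0.44), the replicate block (-0.44), replicates 1 and 2 only (-0.29) and without TCKO replicate 3, and ranged from -0.51 to -0.33 when 1 library was left out. Thbs1 passed with no filter (-0.42) and with replicates 1 and 2 only (-0.53), and ranged from -0.60 to -0.32 with 1 library left out. Itga8 passed with replicates 1 and 2 only (0.39). Postn was 0.47 there and passed, but was -0.05 for replicates 1 and 2 added up, -0.03 for that sum in a blocked fit (replicate block), and -0.03 to 0.35 with 1 library left out. Thbs2 was 0.08 with replicates 1 and 2 only and -0.32 to 0.05 with 1 library left out. Within replicate 3 alone the log2 differences were -4.45 (Tnn), 1.45 (Tnc), -1.63 (Npnt), 1.6 (Itga8), -0.55 (Postn), -0.75 (Fn1), -0.13 (Thbs1) and -0.82 (Thbs2). Among the 8 genes, the TET genes and the list genes named in the report, the replicate block changed the call of Fn1, Itgb3, Cd47 and Sparcl1 and of no other. The cause of these changes was not tested. The 8 genes gave 3 calls, against 5 without the filter and 7 with replicates 1 and 2 only. Over all genes the same fits gave 2447, 2911 and 6237 calls, with more genes tested where the filter was left out.

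Over all genes, 2447 passed, against 3249 with the replicate block, 6237 with replicates 1 and 2 only, 386 for their sum, 1150 for the sum in a blocked fit, and 1153 to 3122 with 1 library left out. Past 2-fold, 878 passed, and 324 with the sums. Of the related genes 24 passed, against 44 with replicates 1 and 2 only, 2 with the sums, 18 with the sums in a blocked fit, and 12 to 32 with 1 library left out. The likeness list depends on the floor of counts: with a mean of at least 500 counts, 5 of 16 named genes remained. A higher floor can only remove named genes that fall under it, so this does not test how stable the list is.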

Other observations

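The 9254 tested genes with a mean of at least 100 counts, the 8 described genes left out, were compared with each of the 8 by the root-mean-square distance between their log2 CPM profiles over the 6 libraries, each profile centred on its own mean. The 6 libraries share the genotype split and the standing of replicate 3, so a small distance says nothing of shared control. How common such distances are was not measured. The profiles closest to Tnn were those of Avil (distance 0.18), an actin-binding protein of the villin family, and Thsd4 (0.34), a microfibril protein. Avil had 41.3, 42.7 and 80.1 CPM in WT and 2.85, 4.35 and 3.14 CPM in TCKO, with the same high value in WT replicate 3 as Tnn. Closest to Npnt were Gprin3 (0.09) and Cavin2 (0.15), a caveolar coat protein with 750, 755 and 666 CPM in WT and 118, 127 and 186 CPM in TCKO. Closest to Tnc were Gm12892 (0.05), annotated as a processed pseudogene and hence of uncertain counts, and Inhba (0.06), which encodes the activin A subunit and had 748, 774 and 734 CPM in WT and 1515, 1481 and 2162 CPM in TCKO.

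For the genes that did not pass, the closest were Il17rd (0.09) and Trerf1 (0.13) for Itga8, Prps1 (0.11) and Lysmd3 (0.11) for Postn, Nxt2 (0.04) and Mfap3l (0.05) for Fn1, Tcn2 (0.05) for Thbs1, and Il4ra (0.06) and Gpt2 (0.08) for Thbs2. Il17rd, a receptor that restrains FGF signalling, had 23.2, 20.5 and 8.73 CPM in WT and 26.8, 24.9 and 26.4 CPM in TCKO, with the low WT replicate 3 seen for Itga8.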
